A study of Mus musculus with 568 samples.

Results

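The S phase and replication genes described here are a module of 40 genes that act when DNA is copied, listed by name. The rule uses no measured value, but the list was drawn up with earlier results of these data known. All 40 were among the 16335 genes of the bulk RNA table and among the 15718 genes of the single-cell table. The bulk data came from 16 libraries, 4 each of embryonic stem cells (ESCs), epiblast-like cells (EpiLCs, 4 days of differentiation), and XGFP+ and XGFP− primordial germ cell-like cells (PGCLCs) sorted on day 5 as SSEA1+ and CD61+ cells. The single-cell data came from ESCs and from germ cells of reconstituted ovaries (rOvaries). In these, PGCLCs were grown for 6 days with somatic cells of female embryonic gonads and mesonephros, by the paper from CD1/ICR mice. All groups derive from XRep, a female 129S1/SvImJ × CAST/EiJ hybrid line with a truncated Tsix on the 129 (mus) X chromosome, GFP on that X, tdTomato on the CAST (cas) X, and doxycycline-inducible Prdm1, Prdm14 and Tfap2c transgenes, which the ESC and EpiLC controls carry too and which were switched on for PGCLC induction. XGFP+ cells express GFP and tdTomato and XGFP− cells tdTomato alone, so the sort itself reads the mus X. ESCs and EpiLCs were not sorted. No age or sex of an animal applies to the bulk groups, and the labels do not tie a library to a clone or culture, so p-values measure only the spread between these libraries, which may be technical. The paper's text describes different clones with technical replicates of each, whereas a figure legend counts 4 biological replicates. By the text, libraries of the same clone are not independent, so n = 4 below counts libraries and not clones.

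Cells license each replication origin once per cycle by loading the MCM helicase before S phase. Firing adds CDC45 and the GINS complex to the helicase, DNA polymerase alpha with primase lays down primers, and the PCNA clamp then holds the copying polymerases on the DNA. Ribonucleotide reductase and thymidylate synthase feed the fork with nucleotides, and histone chaperones such as CAF-1 rebuild chromatin behind it. Most of these genes are textbook targets of E2F transcription factors and are transcribed around the entry into S phase. Female germ cells copy their DNA a last time before they enter meiosis, the stage at which Sycp3, a part of the synaptonemal complex, is made.

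The promoters of 6 members named in the results below are shown for their E2F words, which stand in capitals. Each of these 6 holds a word, which most member promoters do not. Wdr76, E2f8, Cdc45, Chaf1b, Ung and Brip1, whose changes are also given below, held none, and Gins2 had no entry. The windows reach from 250 bases before to 50 bases after the start annotated by RefSeq, read 5′ to 3′ on the strand of the gene (build GRCm38.p6). Pola1 differed most between XGFP− and XGFP+ PGCLCs, Mcm3 and Mcm6 encode subunits of one helicase whose levels went opposite ways from EpiLCs to PGCLCs, Hells and Cdca7 encode partners that stood on opposite sides in cells with high Sycp3, and Pold3 was higher both in XGFP− PGCLCs and in cells with high Sycp3.
Pola1 (chrX:93632106-93632405, minus strand): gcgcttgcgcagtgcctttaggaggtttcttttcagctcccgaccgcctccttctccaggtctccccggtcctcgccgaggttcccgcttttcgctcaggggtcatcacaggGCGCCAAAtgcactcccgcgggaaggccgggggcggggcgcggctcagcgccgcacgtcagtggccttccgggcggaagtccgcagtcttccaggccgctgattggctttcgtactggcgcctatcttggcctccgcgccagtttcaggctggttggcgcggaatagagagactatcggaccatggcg
Pold3 (chr7:100121453-100121752, minus strand): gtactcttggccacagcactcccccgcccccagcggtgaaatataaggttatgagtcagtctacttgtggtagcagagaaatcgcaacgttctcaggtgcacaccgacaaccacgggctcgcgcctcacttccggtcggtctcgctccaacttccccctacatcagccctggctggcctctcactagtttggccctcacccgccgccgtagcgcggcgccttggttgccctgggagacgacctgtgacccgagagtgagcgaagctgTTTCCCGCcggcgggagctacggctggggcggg
Mcm3 (chr1:20820263-20820562, minus strand): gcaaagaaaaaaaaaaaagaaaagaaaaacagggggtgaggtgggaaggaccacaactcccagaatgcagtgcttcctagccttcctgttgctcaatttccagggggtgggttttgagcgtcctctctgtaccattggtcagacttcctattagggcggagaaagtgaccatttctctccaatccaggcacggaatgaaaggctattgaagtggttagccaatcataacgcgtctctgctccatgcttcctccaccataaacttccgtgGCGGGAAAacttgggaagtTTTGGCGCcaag
Mcm6 (chr1:128359656-128359955, minus strand): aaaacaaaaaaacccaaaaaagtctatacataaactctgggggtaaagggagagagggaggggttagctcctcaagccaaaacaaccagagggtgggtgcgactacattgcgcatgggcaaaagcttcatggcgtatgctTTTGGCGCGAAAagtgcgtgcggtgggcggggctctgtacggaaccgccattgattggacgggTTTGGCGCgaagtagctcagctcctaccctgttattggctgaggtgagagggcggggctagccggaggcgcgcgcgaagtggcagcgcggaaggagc
Hells (chr19:38930740-38931039, plus strand): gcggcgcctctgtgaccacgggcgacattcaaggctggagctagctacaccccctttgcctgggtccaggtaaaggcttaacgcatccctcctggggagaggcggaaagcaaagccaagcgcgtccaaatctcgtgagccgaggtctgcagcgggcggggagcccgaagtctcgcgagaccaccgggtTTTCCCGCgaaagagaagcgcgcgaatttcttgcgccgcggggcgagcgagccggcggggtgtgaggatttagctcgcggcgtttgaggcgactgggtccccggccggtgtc
Cdca7 (chr2:72475969-72476268, plus strand): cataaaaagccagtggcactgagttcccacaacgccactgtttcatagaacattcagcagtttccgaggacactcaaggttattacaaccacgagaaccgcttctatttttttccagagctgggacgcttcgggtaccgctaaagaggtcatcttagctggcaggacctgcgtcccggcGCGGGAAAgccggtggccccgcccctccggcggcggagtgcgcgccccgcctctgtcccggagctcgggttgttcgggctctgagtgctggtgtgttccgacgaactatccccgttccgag

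The words searched on both strands were TTTCCCGC, TTTGGCGC, TTTCGCGC and TTTGCCGC, and matches may overlap. Of the 40 members, 32 matched a RefSeq promoter by symbol, and 13 of these 32 (40.6%) held a word, against 704 of 27025 symbols (2.6%) in the whole table. The first 2 of the 3 words in the Mcm6 promoter overlap, and the Mcm3 promoter holds 2 words, both after the annotated start. The word CCAAT stood in 23 of the 32 member promoters (71.9%) and in 41.1% of all symbols. TTTGAA or TTCGAA, a word typical of G2 and mitosis genes, stood in 21.9% of member promoters and 21.7% of all. A match is a run of letters and not a measured binding site, and base composition was not matched between the members and all symbols. Mcm4, Gmnn, Gins2, Rfc2, Dscc1, Tipin, Exo1 and Usp1 had no entry.

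Recovered read totals ran from 29.8 M to 46.5 M reads per bulk library. All values below from bulk libraries are normalized counts, that is, reads per gene scaled by 1 factor per library and not by gene length, so levels are compared between groups and not between genes. A gene was called changed at an FDR (Benjamini-Hochberg, over 16281 genes, limma) below 0.001. In bulk RNA, fewer cells in S phase and less RNA of a gene per cell cannot be told apart. By DNA content, the paper reports similar cell cycle profiles for ESCs, EpiLCs and XGFP+ PGCLCs, with most cells in S phase. For XGFP− PGCLCs it reports fewer cells in S phase. How these profiles relate to the RNA levels below was not tested. The summed EpiLC markers (Fgf5, Otx2, Pou3f1 and Dnmt3b) ran from 51890 to 60660 in EpiLCs and from 930.7 to 4115 elsewhere. The summed germ cell markers ran from 25820 to 33270 in the PGCLC libraries and from 1988 to 9808 in the others. They include Prdm1, Prdm14 and Tfap2c, whose transgenes were switched on for PGCLC induction, so the rise of the sum does not test the stage. Of the rest, Dppa3, Dnd1 and Nanos3 had higher means in both PGCLC groups than in ESCs and EpiLCs. Dazl (4792 in XGFP+ and 347.6 in XGFP− PGCLCs, 578.7 in ESCs) and Ddx4 (460.6 in XGFP+ and 223.6 in XGFP− PGCLCs, 532.1 in EpiLCs) did not. The summed naive ESC markers (Zfp42, Klf2, Klf4, Tbx3, Tfcp2l1 and Esrrb) ran from 46540 to 53820 in XGFP+ PGCLCs. In XGFP− PGCLCs they ran from 27650 to 34370, so the PGCLC groups differed in more than GFP. They ran from 129900 to 146700 in ESCs and from 3031 to 7606 in EpiLCs. Of 12 gonadal somatic markers, 6 are in the bulk table, and their sum was 99.06 to 150.8 in PGCLCs and 2863 to 5316 in EpiLCs, where Fst made up most of it. The 54 G2 and mitosis genes and 60 other replication genes serve below as lists to set beside the members.

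The first comparison asks how the module differs between PGCLCs that express GFP from the mus X and those that do not. Between XGFP− and XGFP+ PGCLCs, 2 members were higher, Cdc45 and Pold3, and 2 were lower, Pola1 and Chaf1b, while 36 did not pass the test. Of all genes tested, 11.3% were higher and 12.5% lower in XGFP− PGCLCs, so a smaller share of the members than of all genes was called in each direction. The median log2 fold change of the members was 0 and that of all genes 0.01, with a range over members of −0.62 to 0.32. XGFP− libraries lay above all XGFP+ libraries for 8 of 40 members and below all of them for 11. Over the 16281 genes tested these counts were 3905 and 3537. The numbers of the XGFP+ and XGFP− libraries were taken as paired, by a limit given below. With the library number as a block Tipin (−0.24, FDR 0.00024) and Rrm2 (−0.31, FDR 0.00081) were lower as well.

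**Figure D1:**
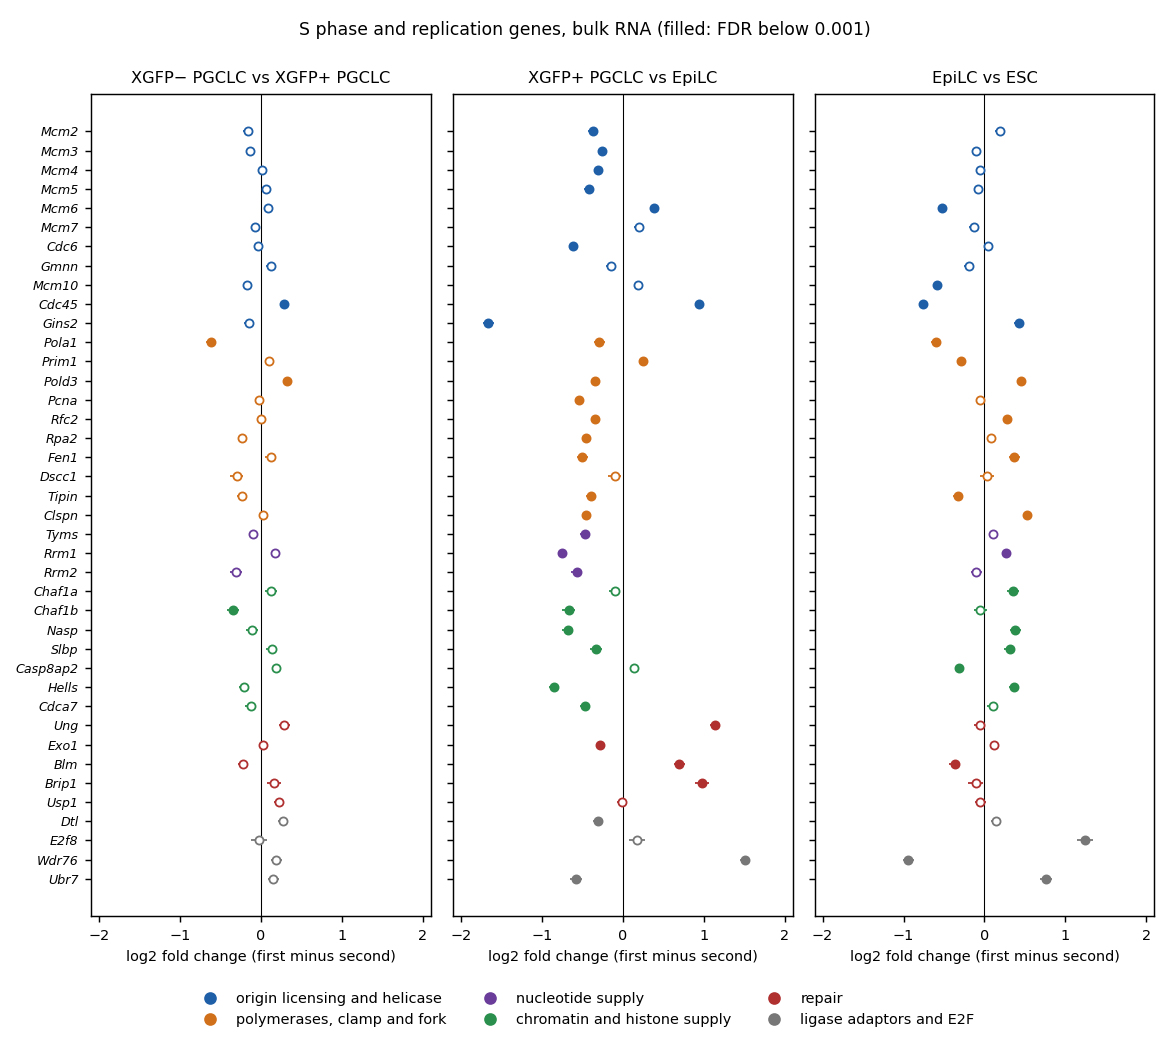
Log2 fold changes (x axis) of the 40 members (y axis) between bulk groups in 3 of the 5 comparisons, with bars of 1 standard error from the limma model, colours for the role of the gene and filled points for an FDR below 0.001. Most members lie near 0 between XGFP− and XGFP+ PGCLCs (left), where Pola1 is farthest from 0 at −0.62, and 25 of 40 are filled to the left of 0 between XGFP+ PGCLCs and EpiLCs (middle).

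Pola1 encodes the catalytic subunit of DNA polymerase alpha, which starts every new DNA strand together with primase. It is the X-linked member of the polymerase group (mm10 chrX:93304767-93632155, minus strand). Its normalized counts in the 4 XGFP+ libraries were 11281.2, 11670.1, 9965.3 and 12060.5. In the 4 XGFP− libraries they were 6716, 7298, 7331.8 and 7854.9. Every XGFP− library lay below every XGFP+ library, with means of 7300 ± 465 and 11240 ± 910 (SD, n = 4), which is 35% lower (log2 fold change −0.62, SE 0.066, FDR 4.7e-07). The call held under all 17 other settings that kept the FDR limit and set none on the fold change. It is lost where an absolute log2 fold change above 1 is required. Prim1, the catalytic primase subunit of the same complex, encoded on another chromosome, was at 3937 ± 220 in XGFP− and 3666 ± 173 in XGFP+ PGCLCs (n = 4) and did not pass the test (FDR 0.13).

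Cdc45 encodes a part of the active helicase that is added when an origin fires. It stood at 4579.9, 4474.5, 4438.7 and 4734 in the XGFP− libraries. In the XGFP+ libraries it stood at 3826, 3569.6, 3764.6 and 3745.5. The ranges did not overlap, and the level was 1.22-fold higher in XGFP− PGCLCs (0.29, SE 0.044, FDR 3.3e-05). Pold3, an accessory subunit of DNA polymerase delta, gave 5176.1, 5021.1, 5196.6 and 4909.2 in XGFP− libraries. In XGFP+ libraries it gave 4154.3, 3825, 4261.4 and 4084. These ranges did not overlap either, and the difference was 1.24-fold (0.32, SE 0.049, FDR 4.1e-05). Both calls held under the same 17 other settings and, like that of Pola1, are lost where an absolute log2 fold change above 1 is required.

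Chaf1b encodes a subunit of CAF-1, the chaperone that places histones on newly copied DNA. XGFP− libraries read 1845.8, 1870.5, 1867.8 and 1838.8, and XGFP+ libraries 2267.1, 2324.3, 2550.9 and 2314.3. All XGFP− libraries were lower, by 21.4% in the mean (−0.35, SE 0.076, FDR 0.00099). The FDR was close to the limit, and 7 of 17 other settings kept the call, which was lost on leaving out any 1 of the 8 libraries. Chaf1a, the large subunit of the same chaperone, was at 4048 ± 263 in XGFP− and 3745 ± 374 in XGFP+ PGCLCs (n = 4, FDR 0.2), and its libraries overlapped. Next to the limit were Rpa2, a subunit of the single-strand binding protein (−0.23, FDR 0.0011), Ung, the uracil DNA glycosylase (0.29, FDR 0.0012), Dtl, the adaptor that marks CDT1 for destruction in S phase (0.27, FDR 0.0013), and Rrm2, the small subunit of ribonucleotide reductase (−0.31, FDR 0.0013). The 6 subunits of the MCM2-7 helicase had log2 fold changes from −0.16 to 0.08, none of them called.

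**Figure D2:**
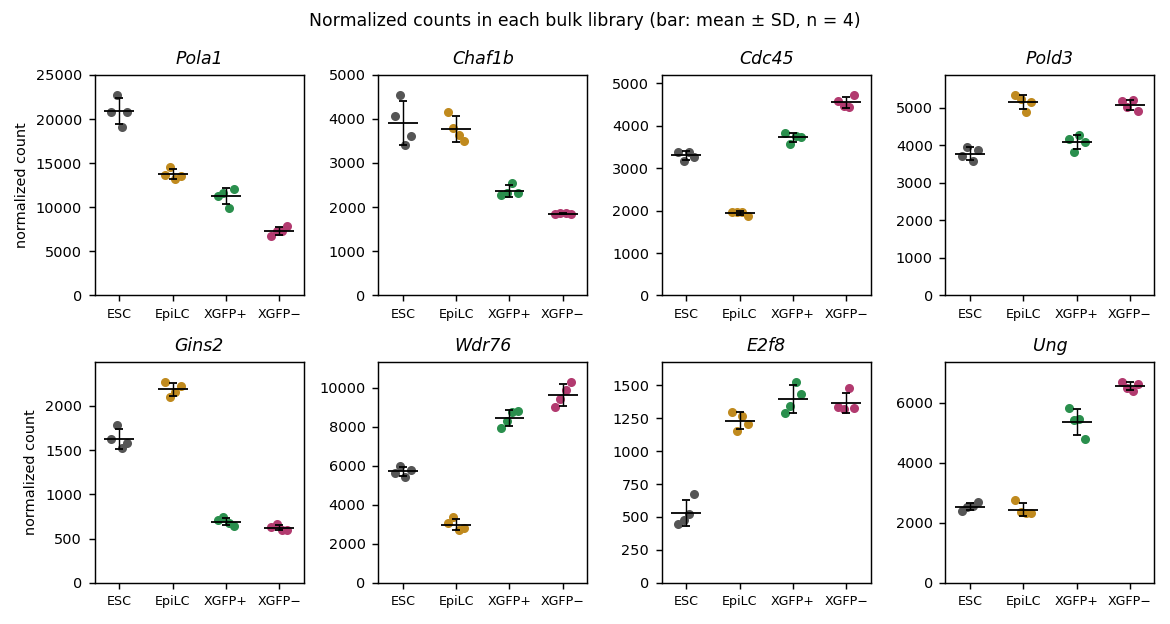
Normalized counts (y axis, from 0, its own scale for each gene) of 8 members in the 16 bulk libraries, 1 point a library, with the group mean as a line and ±1 SD as a bar (n = 4 a group). Pola1 steps down from ESCs to XGFP− PGCLCs, Gins2 is lowest in both PGCLC groups, and Wdr76 and Cdc45 are lowest in EpiLCs.

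The allelic ratios of Pola1 separate the groups by the mus X. The ratio is the share of mus reads among mus and cas reads. In the 4 ESC libraries it was 0.52, 0.493, 0.503 and 0.512, and in EpiLCs 0.337, 0.333, 0.331 and 0.313. In XGFP+ PGCLCs it was 0.315, 0.316, 0.22 and 0.262, and in XGFP− PGCLCs 0.00363, 0.00285, 0.00398 and 0.00549. The means were 0.507 ± 0.0118, 0.329 ± 0.0107, 0.278 ± 0.0465 and 0.00399 ± 0.00111 (SD, n = 4). Of the 6 pairs of groups, all but EpiLCs and XGFP+ PGCLCs were without overlap, each with an exact two-sided permutation p of 0.0286, the smallest that 4 against 4 libraries allow (0.0343 after Benjamini-Hochberg adjustment over the 6 pairs). EpiLCs and XGFP+ PGCLCs overlapped (difference −0.0503, exact permutation p = 0.0857, adjusted 0.0857). Because the sort reads GFP from the same chromosome, every difference of a PGCLC group from another group rests on cells chosen by it. The p-values of these pairs are therefore no independent evidence on the mus X. Gmnn, which encodes the licensing inhibitor geminin on chromosome 13, had mean ratios between 0.49 and 0.501 in the 4 groups, with exact permutation p-values of at least 0.343 (adjusted 0.891 to 0.943). The depth behind these ratios is unknown.

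**Figure D3:**
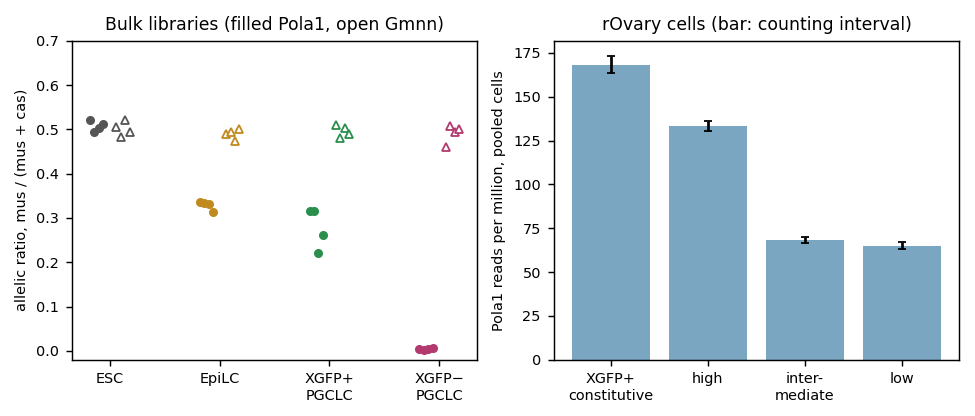
Left, allelic ratio mus / (mus + cas) of Pola1 (filled circles) and the autosomal Gmnn (open triangles) in each bulk library. Right, Pola1 RPM (reads per 1000000) pooled over the kept cells of each rOvary population, with the exact 95% Poisson interval, which covers counting error only. The Pola1 ratio is near 0 in the 4 XGFP− libraries, and its pooled level is 168.3 in XGFP+ constitutive and 64.92 in XGFPlow cells.

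The second comparison follows the module from ESCs, cultured in naive conditions, to EpiLCs. Of the 40 members 12 were higher in EpiLCs and 9 lower, that is 21 of 40, against 24.9% of all genes higher and 22.9% lower. The members had a median log2 fold change of −0.01 and all genes of 0.01. E2f8, an E2F repressor that is itself made in S phase, increased most. Its normalized counts were 446.8, 474.3, 520.5 and 672 in ESCs and 1294.3, 1154, 1267.8 and 1208.7 in EpiLCs. The groups were far apart, 2.35-fold (1.24, SE 0.099, FDR 2.5e-09). Wdr76, an adaptor of ubiquitin ligases, decreased most. It read 5617.2, 5994.9, 5436.2 and 5787.5 in ESCs and 3078.8, 3346.4, 2694.5 and 2793.6 in EpiLCs, with no overlap (−0.94, SE 0.065, FDR 3.4e-10).

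Members of a shared complex went different ways from ESCs to EpiLCs. Among the licensing and helicase genes Gins2 was higher (0.43, FDR 1e-05), whereas Cdc45 (−0.76), Mcm10 (−0.59) and Mcm6 (−0.52) were lower, with FDR values of at most 8.8e-09. The other 5 subunits of MCM2-7 lay between −0.13 and 0.19 and were not called. At the fork, Clspn, which encodes the checkpoint mediator claspin, was higher (0.53), as were Pold3 (0.45), the flap endonuclease gene Fen1 (0.37) and the clamp loader gene Rfc2 (0.28), while Pola1 (−0.60), Tipin (−0.33) and Prim1 (−0.29) were lower. Of 7 genes of chromatin and histone supply 4 were higher, Nasp, Hells, Chaf1a and Slbp (0.31 to 0.38), and Casp8ap2 was lower (−0.31). The calls of Slbp and Chaf1a were lost under 7 and 3 of 17 other settings. Dscc1, a part of an alternative clamp loader, moved least (0.03, FDR 0.8), with 847.5, 844.8, 705.6 and 849.6 in ESCs and 879.2, 868.2, 821.7 and 735.7 in EpiLCs, 2 overlapping ranges.

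The third comparison sets PGCLCs against the EpiLCs they were made from. In XGFP+ PGCLCs 25 of 40 members were lower than in EpiLCs and 7 were higher, against 29.5% of all genes lower and 27.8% higher. The median log2 fold change was −0.32 for the members and 0 for all genes. All 3 nucleotide supply genes, 8 of 10 polymerase, clamp and fork genes, 5 of 7 chromatin and histone supply genes and 6 of 11 licensing and helicase genes were lower, and 3 of 5 repair genes were higher. The list of 60 other replication genes did not lean this way, with 19 higher, 16 lower and a median of 0.07. The 54 G2 and mitosis genes had 13 higher, 18 lower and a median of −0.04. Among the members with a promoter entry, 10 of the 20 that were lower (50.0%) and 1 of the 7 that were higher (14.3%) held an E2F word.

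Gins2, a subunit of the GINS complex, decreased most. Its normalized counts were 2271.7, 2106.3, 2159 and 2221.8 in EpiLCs and 709.2, 741, 672.9 and 643.1 in XGFP+ PGCLCs. No library came near the other group, and the fall was 68.4% (−1.66, SE 0.064, FDR 9.6e-14). Its exons overlap those of Gse1 on the opposite strand, and the bulk libraries were stranded. Hells, a chromatin remodeler needed for DNA methylation, was lower by 44.4% (−0.85, FDR 3e-10). Rrm1 (−0.75), Rrm2 (−0.57) and Tyms (−0.47), which encode both subunits of ribonucleotide reductase and thymidylate synthase, were lower with FDR values of at most 7.3e-07. The licensing factor gene Cdc6 (−0.61), the clamp gene Pcna (−0.54) and the helicase genes Mcm5 (−0.42), Mcm2 (−0.37), Mcm4 (−0.31) and Mcm3 (−0.26) were lower as well.

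Wdr76 rose most, from the EpiLC values above to 7924.1, 8273.2, 8757.3 and 8783.4 in XGFP+ PGCLCs. The groups did not overlap (1.51, SE 0.065, FDR 4.4e-13). Ung, which removes uracil from DNA, was 2.2-fold higher (1.14, FDR 1.7e-11), Brip1, a helicase of the BRCA1 pathway, 1.97-fold (0.98, FDR 9.7e-09) and Blm, the Bloom helicase, 1.62-fold (0.70, FDR 1.5e-08). Cdc45 was 1.91-fold higher (0.94) and Mcm6 1.3-fold (0.38), opposite to the other called MCM2-7 subunits, while Mcm7 was not called (0.20, FDR 0.0034). Prim1 was higher (0.25, FDR 0.00045) and Pola1 lower (−0.29, FDR 0.00056), although 6 and 8 of 17 other settings lost these calls. Usp1, a deubiquitinase of PCNA, moved least (−0.01, FDR 0.87), with 6488.8, 6904.4, 6333.9 and 7032.9 in EpiLCs and 6138.5, 6503.4, 7101.4 and 6801.4 in XGFP+ PGCLCs, which overlap. With the library number as a block, Mcm10 was called too (0.19, FDR 0.00036), but the numbers of these 2 groups were not taken as paired.

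XGFP− PGCLCs were compared with the same 4 EpiLC libraries, so the values of this comparison share its control with the last. In XGFP− PGCLCs 23 members were lower and 8 higher, against 31.9% and 29.9% of all genes, with a median of −0.35 (all genes −0.03). Gins2 read 629.1, 659.4, 600.2 and 601.9 in XGFP− PGCLCs (−1.81, SE 0.064, FDR 2e-14) and Wdr76 8978.7, 9390, 9846.8 and 10286.3 (1.70, SE 0.065, FDR 5.9e-14). Neither overlapped the EpiLC libraries. Hells (−1.05), Chaf1b (−1.02), Pola1 (−0.91) and Rrm2 (−0.88) followed Gins2 among the lower members, and Ung (1.43), Cdc45 (1.23) and Brip1 (1.13) followed Wdr76 among the higher ones. Chaf1a moved least (0.01, FDR 0.86), with 3972.3, 3793.4, 4253.4 and 4001.3 in EpiLCs and 4269.7, 4098.6, 4155.9 and 3669.3 in XGFP− PGCLCs. The call of Dscc1 (−0.39, FDR 0.00027) was lost under 5 of 17 other settings.

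Against ESCs, 18 members were lower in XGFP+ PGCLCs and 5 higher, where all genes had 24.9% lower and 25% higher. The members had a median of −0.17 and all genes of 0. All 3 nucleotide supply genes were again lower, with 7 of 11 licensing and helicase genes, whereas only repair genes and the ligase adaptor and E2F genes had members that were higher. E2f8 read 1286.8, 1343, 1525.8 and 1433.9 in XGFP+ PGCLCs, all above the 4 ESC libraries (1.42, SE 0.099, FDR 4.4e-10), and Ung was 2.11-fold higher (1.08, FDR 5.9e-11). Gins2 was lowest relative to ESCs, which read 1622.1, 1788.5, 1526.8 and 1583.7 (−1.24, SE 0.064, FDR 8e-12). Slbp, which binds the stem-loop of histone mRNA, moved least (−0.02, FDR 0.84), with 5973, 6019.6, 5003 and 5123.4 in ESCs and 5368.6, 5198, 5428.2 and 5806.3 in XGFP+ PGCLCs. The call of Nasp, a histone chaperone (−0.30, FDR 0.00096), was lost under 9 of 17 other settings.

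The other replication genes hold the rest of the machinery. Between XGFP− and XGFP+ PGCLCs 5 of 60 were higher and 6 lower, led by the helicase gene Mcm8 (0.57, FDR 1.4e-05) and by Uhrf1, the partner of the maintenance methyltransferase (−0.86, FDR 3.2e-07). From ESCs to EpiLCs 10 were higher, led by the E2F repressor E2f7 (2.14), and 26 lower, led by E2f2 (−1.25). In XGFP+ PGCLCs against EpiLCs, the origin firing factor Ticrr (1.76) and the activators E2f2 (1.55) and E2f1 (1.20) led the higher genes, and Uhrf1 (−1.94) and the histone chaperone Asf1a (−1.10) were among the lower ones. All of these had FDR values of at most 6.9e-10. In XGFP− PGCLCs against EpiLCs 22 were higher and 20 lower, and in XGFP+ PGCLCs against ESCs 12 and 23. Of the 54 G2 and mitosis genes, 1 was higher and 4 lower between XGFP− and XGFP+ PGCLCs (Cdc25c 0.61, Psrc1 −1.18).

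In single cells the module was summed for each cell as RPM (reads per 1000000 reads of the cell). Of 518 rOvary cells sorted, 401 passed the filters: 76 XGFP+ constitutive cells, which came from XGFP+ PGCLCs, and XGFPhigh, XGFPintermediate and XGFPlow cells (91 of the last), which came from XGFP− PGCLCs and were sorted by their GFP. The labels name no culture, so each population counts as 1 sample and has no test. Reads per kept cell had medians of 0.358 M in XGFP+ constitutive cells and 0.636 to 0.645 M in the other 3 populations, and the 10 empty wells held at most 242 reads and no member read. All XGFP+ constitutive cells were sequenced in lane 2, whereas only 14 kept XGFPhigh, 13 XGFPintermediate and 12 XGFPlow cells were in lane 2 and the rest in lane 3.

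The summed level had a median of 8260 in XGFP+ constitutive cells (range 2655 to 17820), 9670 in XGFPhigh (2964 to 20240), 8322 in XGFPintermediate (3376 to 22090) and 9707 in XGFPlow cells (4046 to 20680). The 24 ESCs, sequenced in another flow cell, had a median of 9371. Populations overlapped over most of their range, and each median lies inside the quartiles of the other 3. In lane 2 alone the medians were 8260, 8603, 6384 and 7351, and lane 3 alone gave 10160, 8432 and 9931 for XGFPhigh, XGFPintermediate and XGFPlow. In both lanes XGFPhigh cells had the highest of these 3 medians and XGFPintermediate cells the lowest. XGFP+ constitutive cells had the lowest median over all lanes, but stood above XGFPintermediate and XGFPlow cells in lane 2, the only lane that holds them. The part of the lane in these differences was not tested. When each gene was weighted alike, by the mean of log2(RPM + 1), the ratio to XGFP+ constitutive cells went from 1.01 to 0.6 for XGFPintermediate and from 1.18 to 0.747 for XGFPlow cells. This measure also falls where a gene has no read in a cell. The median of genes detected was 8266 in XGFP+ constitutive, 7302 in XGFPintermediate and 7367 in XGFPlow cells. The nucleotide supply genes varied most between populations, with medians of 817.8, 1121, 539.8 and 773.5. The summed level of the 8 meiotic markers had medians of 1185, 937.1, 5053 and 3730 in the same order.

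**Figure D4:**
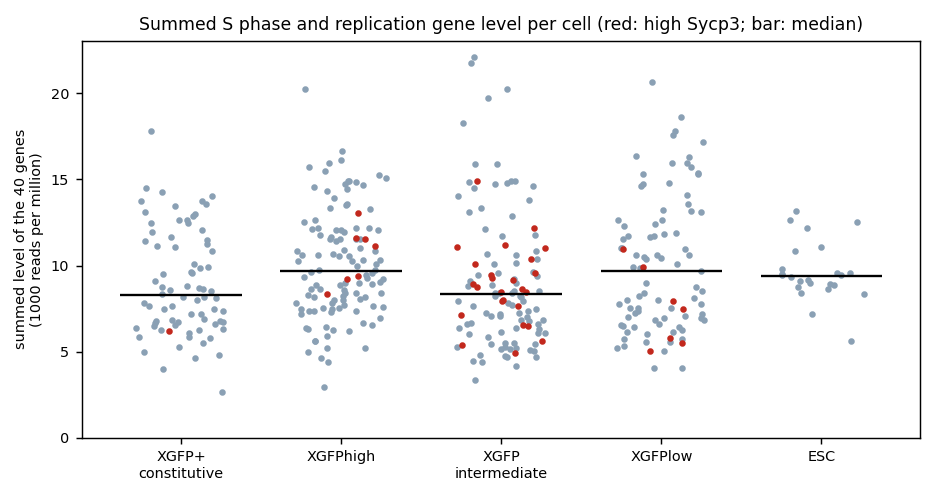
Summed level of the 40 genes (y axis, in 1000 RPM) in each kept cell of the 4 rOvary populations and in ESCs, 1 point a cell, with the median as a line and cells with high Sycp3 in red. The populations overlap, with medians from 8260 to 9707 RPM, and the red cells lie in the middle of the range.

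Single members were compared by reads pooled over the cells of a population, given with exact 95% Poisson intervals that cover counting error only, since reads without molecular identifiers are not independent molecules. Of 39 members with a level of at least 1 RPM pooled over all kept rOvary cells, none was 2-fold higher or lower in XGFPhigh than in XGFP+ constitutive cells, where 5.26% of 12543 genes were higher and 3.32% lower. In XGFPintermediate cells 0 members were 2-fold higher and 1 was lower (all genes 16.6% and 10%), and in XGFPlow cells likewise 0 and 1 (14.1% and 10.1%). The 1 member was Pola1 in both. It stood at 168.3 RPM in XGFP+ constitutive cells (163.5 to 173.3), 133.3 in XGFPhigh (130.7 to 135.9), 68.24 in XGFPintermediate (66.4 to 70.13) and 64.92 in XGFPlow cells (62.92 to 66.96). Its allelic ratio per cell had a median of 0.465 over 62 XGFP+ constitutive cells, 0.467 over 96 XGFPhigh cells, 0 over 61 XGFPintermediate cells (38 of them at 0) and 0 over 37 XGFPlow cells (30 at 0). Low Pola1 levels stood in the 2 populations in which most cells with a ratio had no mus reads of it. These populations were sorted on GFP from the mus X. They also had the higher medians of summed meiotic markers (5053 and 3730, against 1185 and 937.1 in XGFP+ constitutive and XGFPhigh cells). In cells with high Sycp3, defined below, Pola1 stood at 0.337 times the other cells, and at 0.499 times within XGFPintermediate cells. Not every cell had a ratio, and the reads behind each ratio are unknown. The part of the mus X and of the meiotic marker level in the low Pola1 level was not tested. Of the members at or above 1 RPM, Hells (1.76), Clspn (1.63), Brip1 (1.57) and Slbp (1.51) had the highest ratios to XGFP+ constitutive cells in XGFPintermediate cells, and Slbp (1.62), Clspn (1.56) and Hells (1.52) in XGFPlow cells.

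Fen1 was the member under this floor over all kept rOvary cells, with 0.6889 to 1.088 RPM in the 4 populations, although its normalized counts in bulk averaged 3785 over the 16 libraries. Its exons overlap those of Tmem258 and Gm10143 on the opposite strand. Whether the single-cell counting used strand is not given in the sources used here, and the cause of the low value was not tested.

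Cells with high Sycp3 are the tenth of the kept rOvary cells with the most Sycp3 reads, 40 cells with at least 732.3 RPM against at most 616.9 in the other 361. This is a range and not a cell type, and 5 cells lie within 10% of the limit. The 40 cells divide into 1 XGFP+ constitutive, 7 XGFPhigh, 25 XGFPintermediate and 7 XGFPlow cell, and 3 of them are in lane 2. Their summed meiotic markers, which include Sycp3, were at 12980 pooled RPM against 3081 in the others, and gonadal somatic markers were at 11.14 against 11.68. They had as many reads (median 0.612 against 0.599 M) but fewer genes detected (median 6388 against 7908).

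The summed level of the module had a median of 8840 in cells with high Sycp3 (4945 to 14930) and 8789 in the others (2655 to 22090). Of the other cells 50.4% lay below the median of the high class. When each gene was weighted alike, by the mean of log2(RPM + 1), cells with high Sycp3 stood at 0.431 times the others in place of 1.01. This measure also falls where a gene has no read in a cell. Cells with high Sycp3 had fewer genes detected (median 6388 against 7908), and the measure was not taken over all genes. Single members lay farther apart. Of 39 members 14 were at least 2-fold lower in cells with high Sycp3 and 3 at least 2-fold higher, against 30.5% and 18.3% of all genes, and the median ratio was 0.65 for the members and 0.845 for all genes. Of 58 other replication genes, 16 were at least 2-fold lower and 6 at least 2-fold higher, with a median ratio of 0.798. Of 52 G2 and mitosis genes, 17 were lower and 4 higher by this limit, with a median of 0.79. A lower level was thus not particular to the members. These are values of pooled cells with no test.

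The 14 lower members came from every role, with 5 of 11 licensing and helicase genes, 4 of 9 polymerase, clamp and fork genes and 1 of 3 nucleotide supply genes. The rest were 2 of 7 chromatin and histone supply genes, 1 of 5 repair genes and 1 of 4 ligase adaptor and E2F genes. Of all genes 30.5% were lower by the same limit, so these small counts set no role apart. Pooled licensing and helicase genes gave 2336 RPM in cells with high Sycp3 and 3506 in the others, and nucleotide supply genes 499.4 and 1016. The smallest ratios were those of Cdca7 (0.114), a cofactor of HELLS, Ung (0.143), Tyms (0.149), E2f8 (0.17) and Cdc6 (0.242). Ung and E2f8 were near the floor in the high class, at 2.032 and 1.915 RPM, with a read in 22.5% and 7.5% of cells. The largest share of a gene's reads from 1 cell of this class was 61.2% for E2f8, 47.9% for Cdca7 and 31.4% for Tyms. For Ung it was 23.1% and for Cdc6 18.5%. Tyms had a median of 0 RPM per cell against 265 in the other cells, with a read in 45% against 98.3% of cells. Mcm2 and Mcm7 were at 0.256 and Mcm3 at 0.32, while Mcm5 was at 1.34.

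Chromatin and histone supply genes were divided, with 4 of 7 above a ratio of 1 and 3 below, of which 1 was at least 2-fold higher and 2 at least 2-fold lower. Summed, they gave 3591 pooled RPM in cells with high Sycp3 and 2244 in the others. The CAF-1 subunits Chaf1b (0.284) and Chaf1a (0.715) were below 1, as was Cdca7. The largest ratios were those of Brip1 (3.37), Casp8ap2 (2.72), a regulator of histone gene transcription, Pold3 (2.14), Nasp (1.98) and Hells (1.98), followed by Slbp (1.51) and Dtl (1.5). Hells stood at 1220 RPM (1207 to 1234) against 614.9 (611.6 to 618.2) and was read in every cell of the high class, whereas its partner Cdca7 stood at 20.08 against 176.9 and was read in 37.5% against 96.7% of cells. Brip1 stood at 153.5 (148.7 to 158.4) against 45.5 (44.6 to 46.4). No single cell gave more than 7.56% of the reads of Brip1, Casp8ap2, Pold3, Nasp or Hells in the high class, so these ratios do not rest on 1 cell.

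Within XGFPintermediate cells alone, where 25 cells had high Sycp3, 13 members were at least 2-fold lower and 3 higher, against 32.4% and 17.5% of all genes, with a median ratio of 0.749 (all genes 0.807). Cdca7 (0.0558), Tyms (0.174) and Ung (0.21) were again low, and Brip1 (2.88), Casp8ap2 (2.81) and Nasp (2.76) were the 3 higher ones. Pold3 was at 1.83 and Hells at 1.6 there.

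**Figure D5:**
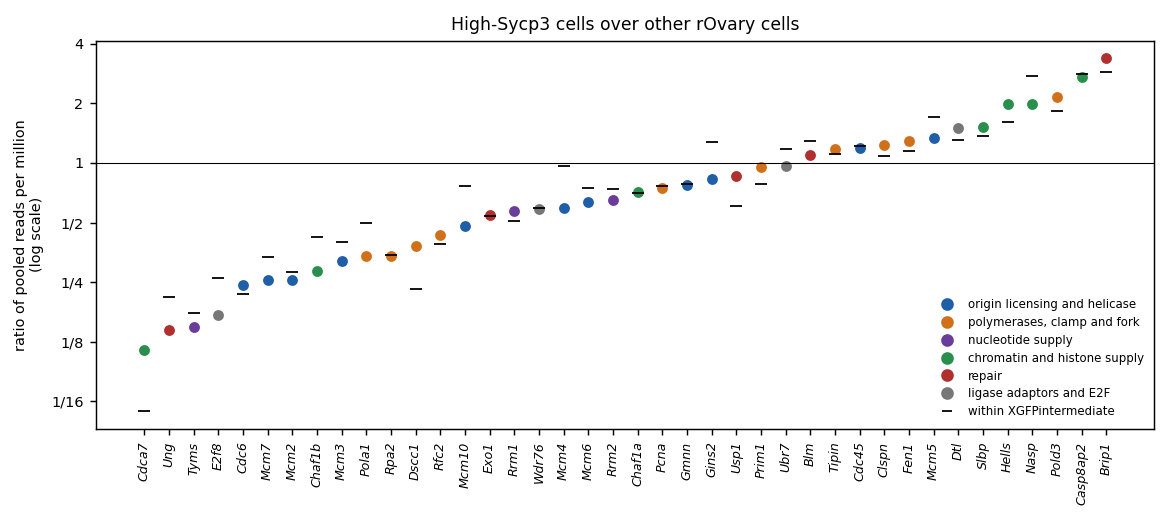
Ratio of pooled RPM in cells with high Sycp3 over the other rOvary cells (y axis, log scale) for each of the 40 members, ordered by the ratio and coloured by role, with a dash for the same ratio within XGFPintermediate cells. Cdca7 is lowest at 0.114 and Brip1 highest at 3.37, and the chromatin and histone supply genes Slbp, Hells, Nasp and Casp8ap2 are among the 8 highest.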

How the data were processed

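The members and lists were chosen with earlier results of these data known. The bulk values are a signal that the authors made: stranded total RNA reads aligned with STAR to mm10, counted with HTSeq 0.6.1, and divided by DESeq2 size factors (version 1.16 per the submitters' processing notes). All values of every library lie within 0.01 of a whole read after division by its step. The deposited allelic values are a fraction of mus reads. The deposited single-cell values are counts of full-length (SMART-seq) reads.

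Here log2(normalized count + 1) was fitted with limma 3.58.1 (limma-trend, 16 libraries, group only, mean above 10, 16281 genes) under R 4.3.3, and called at an FDR below 0.001. Alternatives were pseudocounts of 0.5 and 10, no filter and a mean above 100, quantile normalization, edgeR 4.0.16 and DESeq2 1.42.0 on the recovered reads, the replicate block, the groups alone, and leaving out each library. Tested on simulated data for XGFP− against XGFP+ PGCLCs (16281 genes, 200 changed), limma found 75.5% of changed genes with 0 false calls and 62% of those changed 2-fold. The simulated libraries were drawn independently and the changes were at least 2-fold. These rates therefore do not carry over to libraries that share a clone or to the smaller changes of the members.

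To check for pairing, deviations from group means were correlated across genes. Same-numbered XGFP+ and XGFP− libraries gave 0.135 to 0.307, all above the limit of 0.1 set for pairing, so these groups were taken as paired. Deviations from a group mean cancel within the group. The mean over other numbers (−0.0743) is therefore tied to the same-numbered values and is no separate evidence. Other pairs of groups gave −0.0105 to 0.16. In none of them did all values pass the limit, so they were not taken as paired.

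Cells were kept with at least 4000 genes, 10000 reads, at most 5% mitochondrial reads and, for rOvary cells, a natural log Dazl above 1. Each well received 1 sorted cell, so doublets were not called. Values in each library are given for members called between XGFP− and XGFP+ PGCLCs and for the largest and smallest changes elsewhere; of the other lists, up to the 3 largest increases and decreases were named, except 1 result that is not reported here. 4 columns of other cells were not used. Motifs were searched in RefSeq promoters.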

Additional observations from a re-analysis of the deposited data

Results flagged for a closer look

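Among the 160 sets of 4 libraries (40 members in 4 groups), 13 (8.12%) held a library far from the other 3 by Dixon's ratio at its 95% critical value, where chance gives about 1 in 20. For Mcm7, EpiLC library 1 was at 15740.4 and the nearest of the others at 14067.8. For Ung, EpiLC library 1 was at 2750.1 (nearest 2356.5). For Hells, EpiLC library 3 was at 29507.7 (nearest 26192.5), and for Dtl the same library was at 5156.6 (nearest 4660). For Cdc45, EpiLC library 4 was at 1884.1 (nearest 1963.3). In ESCs, library 1 of Pcna was at 19170.8 (nearest 16808.8), library 3 of Dscc1 at 705.6 (nearest 844.8) and library 4 of Usp1 at 7655.1 (nearest 6726.3). In XGFP− PGCLCs, library 2 stood apart for Dscc1 at 675.6 (nearest 616.5) and for Clspn at 3215.7 (nearest 3029.6), and library 3 for Nasp at 16280.3 (nearest 17984.6) and for E2f8 at 1479.2 (nearest 1333.7). In XGFP+ PGCLCs, library 3 of Rrm2 was at 5678 (nearest 6080.4). These libraries stayed in the fits reported above.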

How the results depend on the processing

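Counts of members called in XGFP− against XGFP+ PGCLCs rest on small differences. The 2 higher members became 6 with DESeq2, 8 at an FDR below 0.05, 0 with an absolute log2 fold change above 1, and 5 with these 2 groups alone and the library number as a block, which was chosen after seeing the data. The 2 lower members became 1 with a pseudocount of 0.5, 4 with quantile normalization, with edgeR and with the groups compared alone, 5 with DESeq2, 11 at an FDR below 0.05, 0 with an absolute log2 fold change above 1, and 1 to 2 on leaving out 1 library. With the replicate number as a block there were 4 lower members and still 2 higher, and 7 lower with the groups alone and the block; beside Tipin, Rrm2 and Mcm10 it changed no other call of a member. Requiring an absolute log2 fold change above 1 left 1 higher and 0 lower member in EpiLCs against ESCs, 2 and 1 in XGFP+ PGCLCs against EpiLCs, 4 and 3 in XGFP− PGCLCs against EpiLCs, and 2 and 1 in XGFP+ PGCLCs against ESCs, where an FDR below 0.05 gave 8 higher. Quantile normalization moved the median of the members in XGFP− PGCLCs against EpiLCs to −0.23. Calls lost on leaving out single libraries were, with the highest FDR over all settings, Chaf1b between the PGCLC groups (any of the 8 libraries, 0.0044), in EpiLCs against ESCs Rfc2 (ESC 4, EpiLC 1, 0.0014), Chaf1a (ESC 1, ESC 2, EpiLC 3, 0.0017) and Slbp (ESC 3, ESC 4, EpiLC 1, EpiLC 2, EpiLC 4, 0.0042), in XGFP+ PGCLCs against EpiLCs Pola1 (EpiLC 1, 2 and 4, XGFP+ 1 and 3, 0.022), Prim1 (EpiLC 2 and 3, XGFP+ 1, 3 and 4, 0.0024) and Slbp (EpiLC 1, XGFP+ 1 and 2, 0.0016), in XGFP− PGCLCs against EpiLCs Dscc1 (EpiLC 1 and 2, XGFP− 1, 3 and 4, 0.0014) and Exo1 (XGFP− 2 and 4, 0.0013), and in XGFP+ PGCLCs against ESCs Nasp (ESC 1, 2 and 4, XGFP+ 2, 3 and 4, 0.036).

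The ratio of median summed levels to XGFP+ constitutive cells was 1.17 for XGFPhigh, 1.01 for XGFPintermediate and 1.18 for XGFPlow. Without mitochondrial reads and the top 50 genes it was 1.16, 0.946 and 1.12, from the mean of log2 values (the difference of medians turned back into a ratio) 1.07, 0.6 and 0.747, from pooled reads 1.11, 0.999 and 1.09, without the Dazl filter 1.15, 0.974 and 0.995, and in lane 2 alone 1.04, 0.773 and 0.89. For cells with high Sycp3 it was 1.01, and in the same order 0.95, 0.431, 0.925, 1.03 and 1.02, with 1.09 for the highest 5% and 1.02 for the highest 20% of cells. The cause of these shifts was not tested. Several of these ratios thus crossed 1, so none of them gives a stable direction for XGFPintermediate, XGFPlow or high Sycp3 cells. Leaving ratios of 0 out of the Pola1 allelic test was not run, because no bulk library had one.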

Other observations

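Over the 401 kept rOvary cells, the summed level of the members had a Spearman correlation of −0.269 with the summed level of the G2 and mitosis genes, of −0.0986 with Sycp3 and of 0.153 with total reads. These describe single cells that share populations, lanes and a common denominator, and are given without a p.

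Members overlap other genes to a small extent. Exons of 10 members overlap a gene on the opposite strand, and Mcm7 holds Mir25 and Mir93 on its own strand. Nasp, Pcna and Tyms have annotated pseudogenes, and how their reads were shared out is not given in the sources used here.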
